A study of Arabidopsis thaliana with 32 samples.

Results

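The comparison set the gcn5 mutant of Arabidopsis thaliana against wild type, in leaves of 3-week-old plants of the Col0 ecotype grown in long days. Its members were the 2 gcn5 and the 2 wild-type RNA-seq libraries, chosen by genotype label, and make up 4 of the 8 RNA-seq libraries and of the 32 samples of the series. The other 4 RNA-seq libraries came from the atxr5/6 double mutant, which lacks a pair of H3.1 lysine 27 monomethyltransferases, and from atxr5/6 gcn5. They are used here only to share the estimate of spread and to set the same gcn5 contrast in a second genetic background. The remaining 24 samples were chromatin immunoprecipitations and were not analysed here. The labels name no gcn5 allele and do not say whether replicates came from separate plants, so p-values measure the spread between these libraries, which may be technical.

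GCN5 is the catalytic subunit of the SAGA coactivator complex, in which it acetylates lysines of the histone H3 tail together with ADA2 adaptors. Histone acetylation by SAGA is associated with active promoters. Arabidopsis gcn5 mutants are known as dwarfed plants with altered leaves and flowers, and the enzyme has been linked to light, cold, heat, salicylic acid and wax biology.

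Total RNA had been depleted of ribosomal RNA before library preparation, per the labels. Gene-table totals ranged from 24860332 to 43969417 counts in the 4 libraries. Features at the nuclear ribosomal DNA loci took 0.311% and 0.664% of gene-table counts in wild type and 21.6% and 13.4% in gcn5. The gcn5 libraries thus lay 35.9 times higher on average, with no overlap. The mean share was 0.488% ± 0.2497 (SD, n = 2) in wild type and 17.5% ± 5.84 (SD, n = 2) in gcn5, and the exact two-sided permutation test gave p = 0.333, the smallest p that 2 against 2 libraries can give. Counting the rRNA genes alone, without features within 5 kb of them, the shares were 0.111% and 0.242% of gene-table counts in wild type and 8.01% and 4.85% in gcn5. Each of the 12 features tested at these loci rose, but not alike. The rRNA gene AT2G01010 held 455 and 1092 CPM in wild type and 40837 and 18866 CPM in gcn5. AT2G01008, at the same locus, held 60.2 and 72.6 CPM against 102 and 110 CPM. CPM here means gene counts scaled to the effective library size, and not per gene length, so CPM values of different genes are not compared.

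Plastid genes took 55.3% and 57.4% of gene-table counts in wild type and 46.5% and 45.9% in gcn5. The 4 identifiers ATCG00920, ATCG00950, ATCG01180 and ATCG01210, singled out after their values were seen, together took 0.152% and 0.307% of gene-table counts in wild type and 21.8% and 14.2% in gcn5. The files do not annotate these identifiers. They may be plastid rRNA genes, in which case the rRNA share given above covers only the nuclear part of the rRNA. All other plastid genes together took 55.2% and 57.1% of gene-table counts in wild type and 24.7% and 31.7% in gcn5. Much of that difference lay in 1 gene, ATCG00020, with 34.1% and 35.2% in wild type and 12.02% and 14.7% in gcn5. The median log2 fold change of the 132 tested plastid genes was only -0.14. Mitochondrial genes took 0.746% and 0.781% of gene-table counts in wild type and 0.973% and 1.26% in gcn5. Each of these shares separated the groups, and the same exact permutation test gave 0.333 for each. The rRNA share moves with the gcn5 label in every library, so its part in any result below cannot be told apart from that of the genotype. With the rRNA share as a covariate no gene was called, but the share nearly repeats the gcn5 label. That fit had little power to separate share from genotype.

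**Figure D1:**
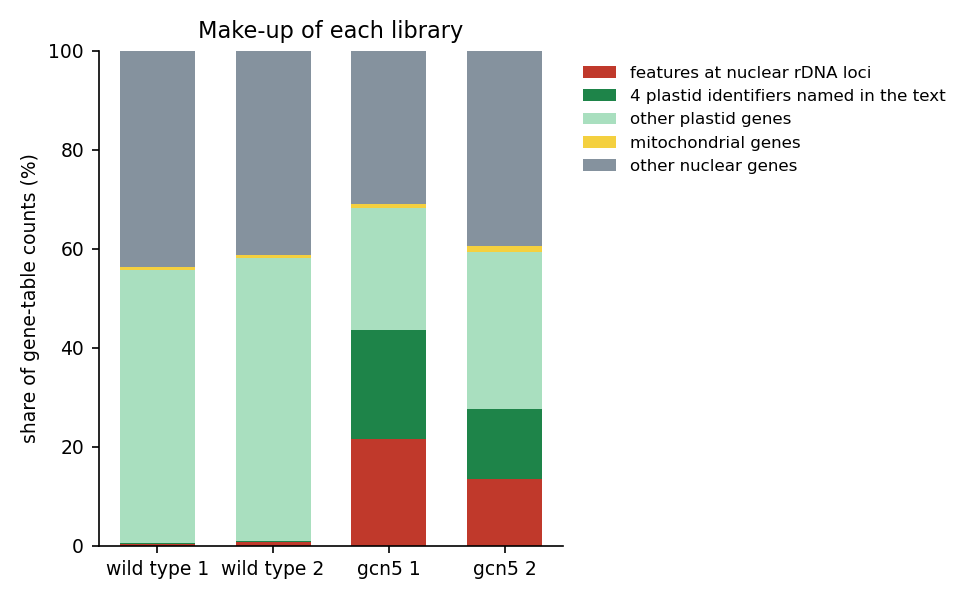
Share of gene-table counts (%, y axis) taken by 5 classes of features in each of the 4 libraries (x axis). Features at nuclear rDNA loci and the 4 plastid identifiers ATCG00920, ATCG00950, ATCG01180 and ATCG01210 took 21.6% and 21.8% of the first gcn5 library, 13.4% and 14.2% of the second, and at most 0.664% and 0.307% of a wild-type library.

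Of 19575 genes tested, 3537 (18.1%) rose and 3806 (19.4%) fell in gcn5 at an adjusted p under 0.05 (quasi-likelihood test of edgeR, Benjamini-Hochberg adjusted), so 37.5% of genes were called. With an absolute log2 fold change of at least 1 besides, 884 genes (4.52%) were higher and 1755 (8.97%) lower. The median log2 fold change over all tested genes was 0.0059. The 2 libraries of each group did not overlap for 13871 genes (70.9%), and every gene called and described with its values below belongs to these unless stated. Because such a large part of the transcriptome moved, each count for a gene group is read against these percentages. Scaling without organelle and rRNA genes gave 3456 higher and 3751 lower genes, whereas scaling by library totals alone gave 1345 and 3493. Higher genes numbered 2299 without the second wild-type library, 1757 without the first gcn5 library and 1734 without the second, which also left 2057 lower genes. Bulk leaf RNA cannot separate fewer cells of a type from less RNA per cell.

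The transcript of HAG1 (AT3G54610), which encodes GCN5 itself, did not pass the test. It stood at 5.33 and 4.25 CPM in wild type and 5.36 and 4.86 CPM in gcn5, with overlapping groups (log2 fold change 0.08 ± 0.18 (SE), adjusted p = 0.75). HAG1 counts thus did not tell the gcn5 libraries from wild type, and the labels do not say what the mutation does to the transcript. Among the SAGA adaptor genes, ADA2B stood at 15.3 and 17.2 CPM in wild type and 12.5 and 14.3 CPM in gcn5 and did not pass the test either (log2 fold change -0.27 ± 0.11, adjusted p = 0.091). ADA2A (log2 fold change 0.20 ± 0.11, adjusted p = 0.18), SGF29a (log2 fold change -0.04 ± 0.19, adjusted p = 0.89) and SGF29b (log2 fold change 0.41 ± 0.18, adjusted p = 0.11) also missed it.

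Several other genes of histone acetylation were higher. Of 20 tested genes for SAGA subunits, histone acetyltransferases and deacetylases, 8 rose (background 18.1%) and none fell, with a median log2 fold change of 0.27. HAC2, a p300/CBP-type acetyltransferase gene, was nearly silent in wild type with 8 and 0 counts and reached 4.22 and 3.35 CPM in gcn5 (log2 fold change 5.06 ± 0.46, adjusted p = 3.2e-04). Its log2 fold change was 3.13 (adjusted p = 3.5e-04) in the atxr5/6 background. HAG2, encoding a histone H4 acetyltransferase, rose from 5.398 ± 0.205 to 8.63 ± 0.0929 CPM (log2 fold change 0.67 ± 0.10, adjusted p = 0.0025). The deacetylase genes HDA05 (log2 fold change 0.49 ± 0.10, adjusted p = 0.0088) and HD1, also known as HDA19 (log2 fold change 0.40 ± 0.09, adjusted p = 0.0095), rose by less. HAC1, HAC12, HAF01 and HDA15 completed the 8, with log2 fold changes from 0.28 to 0.47. Only HAC2 among the 8 stayed called when library totals were used as the scale, where 1 of the 20 genes was called. The count was 4 without the first wild-type library and 3 without either gcn5 library.

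Genes of the salicylic acid response were higher, in part by large factors. Salicylic acid is the plant hormone of defence against biotrophic pathogens, made in the chloroplast through isochorismate synthase and answered by pathogenesis-related (PR) proteins. Of 24 tested members, 15 rose and 1 fell, and the median log2 fold change of 1.36 was the highest of the 30 lists other than cell type markers. BGL2, the beta-1,3-glucanase PR2, stood at 15.6 and 13.4 CPM in wild type and 144 and 196 CPM in gcn5 (log2 fold change 3.54 ± 0.23, adjusted p = 1.0e-04). PR1, the classical marker, stood at 3.54 and 4.75 CPM in wild type and 38.1 and 48.8 CPM in gcn5 (log2 fold change 3.41 ± 0.27, adjusted p = 1.9e-04). Both gcn5 libraries lay far above both wild-type ones for these genes.

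The genes of the synthesis branch moved in the same direction. EDS16, which encodes isochorismate synthase 1, rose from 7.097 ± 0.231 to 27.2 ± 1.42 CPM (log2 fold change 1.94 ± 0.19, adjusted p = 4.7e-04). PBS3, which conjugates isochorismate to glutamate, rose from 4.605 ± 0.558 to 13.5 ± 0.829 CPM (log2 fold change 1.54 ± 0.24, adjusted p = 0.0029). ALD1, the aminotransferase of pipecolic acid synthesis, rose from 0.263 ± 0.0648 to 3.71 ± 0.658 CPM (log2 fold change 3.86 ± 0.30, adjusted p = 1.8e-04). FMO1, which turns pipecolic acid into its N-hydroxy form, had 3 counts over both wild-type libraries and 51 over both gcn5 libraries. That is a ratio of 23.9 (95% exact interval 7.72 to 119.6), with an interval that covers counting error only. The transcription factor genes SARD1 (log2 fold change 1.700 ± 0.34, adjusted p = 0.0068), WRKY70 (log2 fold change 1.97 ± 0.20, adjusted p = 5.7e-04), WRKY54 (log2 fold change 2.13 ± 0.14, adjusted p = 1.0e-04) and WRKY46 (log2 fold change 1.87 ± 0.20, adjusted p = 6.0e-04) rose, as did PR5 (log2 fold change 1.96 ± 0.22, adjusted p = 7.9e-04). WRKY18 was the member that fell, with 42.6 and 78.4 CPM in wild type and 16.6 and 13.7 CPM in gcn5 (log2 fold change -1.99 ± 0.42, adjusted p = 0.0083). In the atxr5/6 background it went the other way, with a log2 fold change of 1.82 (adjusted p = 0.015). WRKY18 lost its call without the second gcn5 library. PAD4 and EDS5 lost their call without the first wild-type library, and also without either gcn5 library.

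Outside the rDNA loci, the 10 largest rises among nuclear genes with at least 10 CPM in the higher group included further defence genes. CHI (AT2G43570), encoding a putative chitinase, stood at 3.26 and 2.86 CPM in wild type and 41.3 and 58.6 CPM in gcn5 (log2 fold change 4.02 ± 0.22, adjusted p = 4.6e-05). AIG1, named for its induction by a bacterial avirulence protein, stood at 0.783 and 0.657 CPM in wild type and 13.1 and 12.2 CPM in gcn5 (log2 fold change 4.102 ± 0.32, adjusted p = 1.8e-04). PNP-A, a natriuretic-peptide-like gene, rose from 1.48 ± 0.0933 to 13.01 ± 1.296 CPM (log2 fold change 3.15 ± 0.26, adjusted p = 2.2e-04). NAC016, a transcription factor gene of leaf senescence, rose from 1.34 ± 0.473 to 10.5 ± 1.64 CPM (log2 fold change 2.91 ± 0.23, adjusted p = 1.9e-04). AT1G54010 rose from 1.34 ± 0.0398 to 23.1 ± 7.64 CPM (log2 fold change 4.097 ± 0.28, adjusted p = 1.1e-04). The largest of the 10 rises belonged to the long non-coding RNA gene AT1G07017, with 0.826 and 1.197 CPM in wild type and 94.5 and 34.97 CPM in gcn5 (log2 fold change 6.04 ± 0.75, adjusted p = 0.0011). Its 4 values ran in the same order as the rRNA share, and the part of the rRNA share in this rise was not tested.

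Genes that make ribosomes were higher, by small amounts but across nearly the whole of a list picked by hand. Ribosome biogenesis takes place in the nucleolus, where RNA polymerase I copies rDNA and snoRNA-guided enzymes modify and cut the precursor. Of 19 tested genes 17 rose and none fell (background 18.1% higher), and the median log2 fold change was 0.66. NUC-L1, the main nucleolin, stood at 54.5 and 52.8 CPM in wild type and 97.8 and 101 CPM in gcn5 (log2 fold change 0.89 ± 0.08, adjusted p = 3.8e-04). NRPA1, the largest subunit of RNA polymerase I, stood at 15.9 and 13.3 CPM in wild type and 27.4 and 27.2 CPM in gcn5 (log2 fold change 0.90 ± 0.11, adjusted p = 0.0012). NAP57, the dyskerin pseudouridine synthase, rose from 12.9 ± 1.07 to 25.2 ± 0.345 CPM (log2 fold change 0.96 ± 0.10, adjusted p = 6.1e-04). EMB2777 (log2 fold change 0.81 ± 0.11, adjusted p = 0.0013), the box C/D protein gene NOP56 (log2 fold change 0.88 ± 0.14, adjusted p = 0.0032) and the fibrillarin genes FIB1 (log2 fold change 0.66 ± 0.11, adjusted p = 0.0039) and FIB2 (log2 fold change 0.90 ± 0.18, adjusted p = 0.0075) rose too. YAO, a nucleolar WD-repeat protein gene, had the largest rise of the list at log2 fold change 1.501 ± 0.24, adjusted p = 0.0028.

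Cytosolic ribosomal protein genes did likewise. The list was picked by symbol or name and may not cover the whole family. Of 34 tested, 28 rose and none fell. A log2 fold change above 0 was found for 33, and the median was 0.53. RPS6 stood at 77.3 and 62.2 CPM in wild type and 124 and 121 CPM in gcn5 (log2 fold change 0.81 ± 0.12, adjusted p = 0.0022), and all the wild-type values were below all the gcn5 values. STV1, which encodes an RPL24 protein, rose from 34.7 ± 2.66 to 56.5 ± 1.93 CPM (log2 fold change 0.70 ± 0.09, adjusted p = 0.0013). Its paralog RPL24A rose from 24.7 ± 1.85 to 40.7 ± 1.34 CPM (log2 fold change 0.72 ± 0.10, adjusted p = 0.0017), and RPL16B from 38.4 ± 2.89 to 58.3 ± 1.33 CPM (log2 fold change 0.60 ± 0.09, adjusted p = 0.0022). These genes are close copies, and how shared reads were assigned is not given in the sources used here. The count depended on the scale and on single libraries. It was 5 with library totals only and 13 without the second wild-type library, 13 and 16 without the first and the second gcn5 library. For ribosome biogenesis the same settings gave 8, 12, 10 and 11.

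Translation and protein-folding families were also higher, as seen in symbol stems with at least 10 tested genes, a grouping made after values were seen. Of 21 eukaryotic initiation factor genes with the stem EIF, 12 rose and none fell. EIF3A rose from 69.8 ± 1.38 to 102 ± 0.164 CPM (log2 fold change 0.55 ± 0.08, adjusted p = 0.0019). Of 18 genes with the stem HSP, 13 rose and 2 fell. Hsp70-2 rose from 6.35 ± 0.366 to 16.4 ± 0.3501 CPM (log2 fold change 1.38 ± 0.10, adjusted p = 1.5e-04). HSP60-2, a mitochondrial chaperonin, rose from 8.36 ± 1.06 to 20.9 ± 1.32 CPM (log2 fold change 1.31 ± 0.11, adjusted p = 2.9e-04). HSP18.2, a small heat shock protein gene, was one of those that fell, from 1.09 and 0.8497 CPM in wild type to 0.0812 and 0 CPM in gcn5. Of 14 RNA polymerase II subunit genes (NRPB), 8 rose and none fell.

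The heat list itself was split, with 4 of 12 genes higher and 2 lower (background 18.1% higher and 19.4% lower). HSP90.1 rose from 3.28 ± 0.825 to 7.303 ± 0.743 CPM (log2 fold change 1.18 ± 0.18, adjusted p = 0.0023) and ROF1, a co-chaperone gene, from 13.8 ± 1.78 to 20.7 ± 0.221 CPM (log2 fold change 0.58 ± 0.11, adjusted p = 0.0049). The heat shock factor genes HSFA7A (log2 fold change -2.75 ± 0.41, adjusted p = 0.0022) and HSFB2A (log2 fold change -1.19 ± 0.19, adjusted p = 0.0028) fell. Leaving out any of the 4 libraries left 2 genes higher.

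**Figure D2:**
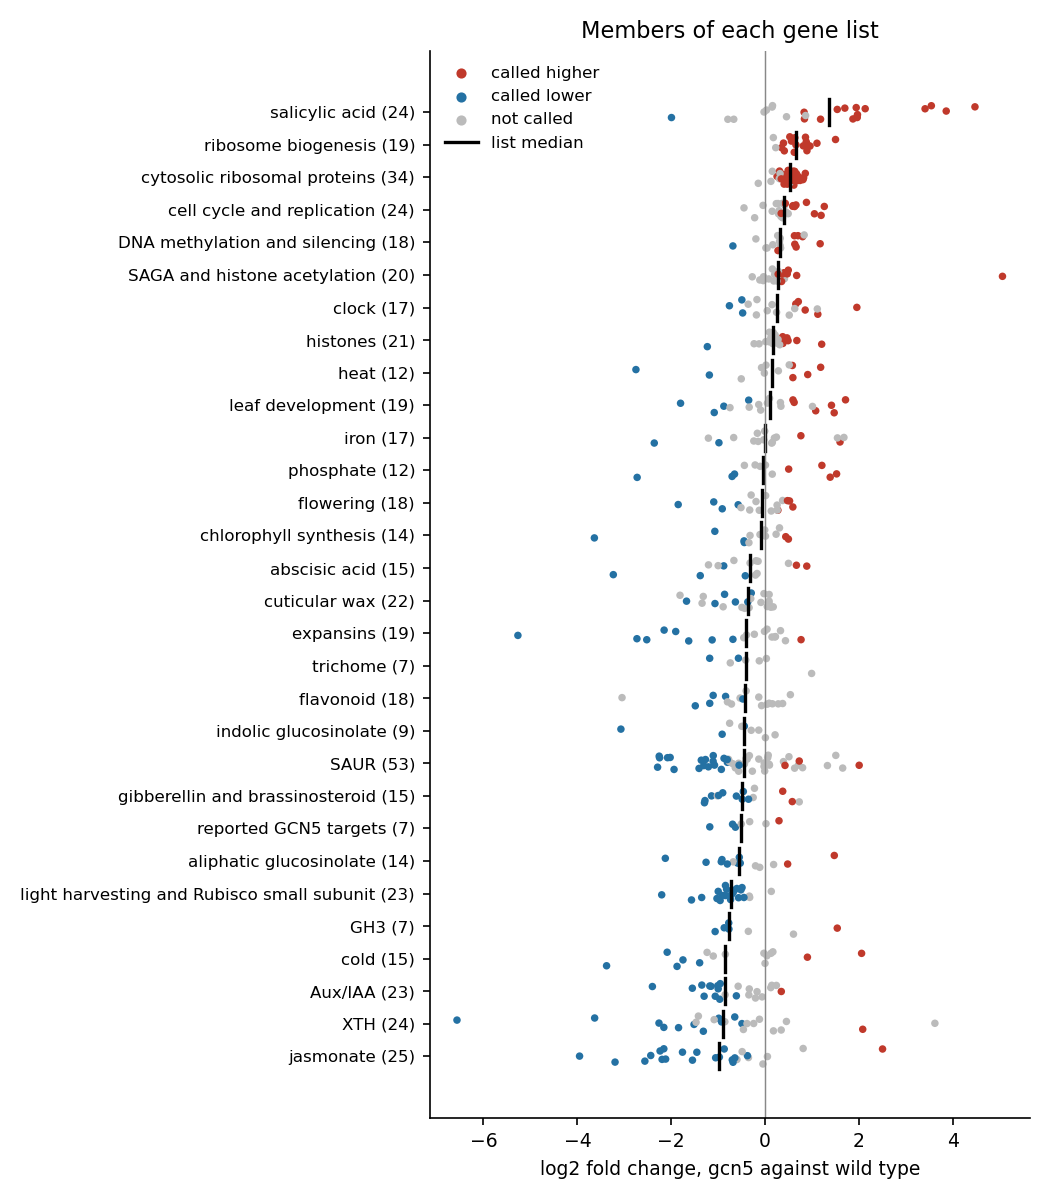
Log2 fold change between gcn5 and wild type (x axis, positive where gcn5 was higher) for each tested member of 30 gene lists (y axis, number tested in brackets), with red for genes called higher, blue for genes called lower and grey for genes not called. Black bars are list medians, which run from -0.97 for jasmonate to 1.36 for salicylic acid.

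Nuclear genes of the light-harvesting antenna and of the Rubisco small subunit were mostly lower. These proteins carry light capture and carbon fixation and are among the most abundant transcripts of a green leaf. Of 23 tested members 20 fell (background 19.4% lower) and none rose, with a median log2 fold change of -0.72. The count was 17 without the second gcn5 library and 20 without each of the other 3. RBCS2B stood at 983 and 819 CPM in wild type and 217 and 175 CPM in gcn5 (log2 fold change -2.202 ± 0.14, adjusted p = 9.6e-05). LHCB4.3, a minor antenna protein of photosystem II, stood at 24.8 and 25.95 CPM in wild type and 9.01 and 8.09 CPM in gcn5 (log2 fold change -1.57 ± 0.10, adjusted p = 1.0e-04). LHCB4.2 fell from 1402 ± 12.7 to 702 ± 64.6 CPM (log2 fold change -0.998 ± 0.10, adjusted p = 4.7e-04) and LHCA3, of photosystem I, from 3064 ± 105 to 1625 ± 72.997 CPM (log2 fold change -0.91 ± 0.11, adjusted p = 9.0e-04). RBCS1A, a reported GCN5 target, did not pass the test, with 4049 and 3698 CPM in wild type and 3134 and 3038 CPM in gcn5 (log2 fold change -0.33 ± 0.13, adjusted p = 0.084).

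The small-subunit genes differed in size of change, with smaller falls for RBCS3B (log2 fold change -0.85 ± 0.15, adjusted p = 0.0042) and RBCS1B (log2 fold change -0.73 ± 0.15, adjusted p = 0.0082) than for RBCS2B, a difference that was not tested. RBCS2B, RBCS3B and RBCS1B are near-identical neighbours, so the split of their reads is uncertain.

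Chlorophyll synthesis showed a mixed pattern, with 2 of 14 tested genes higher and 4 lower (background 18.1% higher and 19.4% lower). PORA, a light-dependent protochlorophyllide reductase, had the clearest fall, with 15.5 and 15.7 CPM in wild type and 1.38 and 1.13 CPM in gcn5 (log2 fold change -3.64 ± 0.18, adjusted p = 3.4e-05). Its relative PORB rose from 316 ± 46.7 to 428 ± 64.7 CPM (log2 fold change 0.44 ± 0.14, adjusted p = 0.035). GPRI1, the GLK1 transcription factor that drives photosynthesis genes, fell from 90.7 ± 16.5 to 43.2 ± 1.403 CPM (log2 fold change -1.07 ± 0.13, adjusted p = 0.001). GUN5, the magnesium chelatase subunit, fell (log2 fold change -0.44 ± 0.11, adjusted p = 0.016), and so did HEMA1, the first committed enzyme of tetrapyrrole synthesis (log2 fold change -0.45 ± 0.12, adjusted p = 0.019). Without the second gcn5 library, and with library totals, 2 were lower and none higher, and without the second wild-type library none was higher, so that PORB lost its call in each.

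Markers of leaf cell types were checked beside these falls. The mesophyll markers include RBCS1A, RBCS3B and the antenna gene LHCB1.3, so they are not a separate check on the Rubisco and antenna genes. The mesophyll markers summed to 19012 and 19107 CPM in wild type and 12703 and 11912 CPM in gcn5, and 4 of 5 fell. The 3 guard cell markers all fell, with sums of 27.8 and 23.02 CPM in wild type and 14.3 and 10.9 CPM in gcn5. Both phloem companion cell markers fell, among them the sucrose transporter gene SUC2 with 108 and 106 CPM in wild type and 36.2 and 35.9 CPM in gcn5 (log2 fold change -1.57 ± 0.08, adjusted p = 3.4e-05). Of 5 floral organ genes none passed the test, with sums of 5.83 and 4.09 CPM in wild type and 2.07 and 6.89 CPM in gcn5. Of 5 root markers only 2 had enough counts, and PYK10 rose from 11.3 ± 0.172 to 22.2 ± 8.69 CPM (log2 fold change 0.98 ± 0.23, adjusted p = 0.012). The seed storage markers had at most 1 count in any of the 4 libraries. Of 5 senescence markers 1 rose, SAG13 (log2 fold change 1.93 ± 0.43, adjusted p = 0.01), a call lost without the second gcn5 library. The libraries carried leaf markers at high level and seed markers at 1 count or none. The part of altered cell makeup in the gene results was not tested.

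Genes of auxin response and cell expansion were lower. Auxin acts through Aux/IAA repressor proteins, and its fast response genes include the SAUR and GH3 families. Of 23 Aux/IAA genes, 12 fell and 1 rose (median log2 fold change -0.85). IAA29, a shade-responsive member, stood at 22.5 and 21.05 CPM in wild type and 4.46 and 3.801 CPM in gcn5 (log2 fold change -2.401 ± 0.20, adjusted p = 2.1e-04). PAP2 (AT4G29080), also called IAA27, fell from 23.9 ± 0.868 to 8.14 ± 0.892 CPM (log2 fold change -1.55 ± 0.10, adjusted p = 1.0e-04) and IAA7 from 82.6 ± 6.004 to 33.6 ± 3.42 CPM (log2 fold change -1.299 ± 0.12, adjusted p = 3.2e-04). AXR3, or IAA17, fell from 16.8 ± 0.496 to 7.58 ± 0.729 CPM (log2 fold change -1.15 ± 0.13, adjusted p = 7.0e-04). SHY2, or IAA3, which has been reported as a GCN5 target, stood at 25.4 and 15.5 CPM in wild type and 9.699 and 8.54 CPM in gcn5 (log2 fold change -1.18 ± 0.21, adjusted p = 0.0047). IAA9 was the member that rose (log2 fold change 0.35 ± 0.08, adjusted p = 0.013), a call lost without the second wild-type library, without either gcn5 library and with library totals.

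Of 53 tested SAUR genes, 19 fell and 3 rose, with a median log2 fold change of -0.45. SAUR23 stood at 9.13 and 9.35 CPM in wild type and 1.95 and 2.41 CPM in gcn5 (log2 fold change -2.08 ± 0.14, adjusted p = 1.1e-04), and its neighbour SAUR22 at 8.48 and 7.802 CPM in wild type and 1.87 and 2.37 CPM in gcn5 (log2 fold change -1.94 ± 0.16, adjusted p = 2.1e-04). SAUR68 (log2 fold change -1.41 ± 0.20, adjusted p = 0.0018) and AT1G29450 (log2 fold change -1.27 ± 0.13, adjusted p = 5.6e-04) fell as well. Several are tandem copies that could share reads. Without the second gcn5 library 8 SAUR genes were lower.

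Of 7 GH3 genes, 4 fell and 1, PBS3, rose. The 4 were the auxin-conjugating enzyme genes WES1 (log2 fold change -1.06 ± 0.10, adjusted p = 4.6e-04), DFL1 (log2 fold change -0.77 ± 0.13, adjusted p = 0.0033), GH3.17 (log2 fold change -0.77 ± 0.16, adjusted p = 0.008) and GH3.9 (log2 fold change -0.87 ± 0.24, adjusted p = 0.024).

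Wall-loosening genes followed. Xyloglucan endotransglucosylase/hydrolase (XTH) enzymes cut and rejoin wall xyloglucan, and expansins loosen the wall. Of 24 XTH genes, 11 fell and 1 rose (median -0.89). XTH6 stood at 92.6 and 51.9 CPM in wild type and 15.1 and 15.1 CPM in gcn5 (log2 fold change -2.26 ± 0.27, adjusted p = 9.7e-04), and XTH24 at 87.97 and 83.8 CPM in wild type and 22.4 and 16.1 CPM in gcn5 (log2 fold change -2.16 ± 0.28, adjusted p = 0.0013). XTH17 had 285 counts over the wild-type libraries and 2 over the gcn5 libraries, a ratio of 101 (95% exact interval 27.8 to 842). XTH10 was the gene that rose (log2 fold change 2.08 ± 0.35, adjusted p = 0.0035). Without the first wild-type library 6 XTH genes were lower and 3 higher, and without the first and the second gcn5 library 7 and 6 were lower.

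Of 19 expansin genes 8 fell and 1, EXPA15, rose. EXPA5 fell from 22.2 ± 0.692 to 13.8 ± 0.785 CPM (log2 fold change -0.68 ± 0.09, adjusted p = 0.0015), EXPB1 from 1.57 ± 0.146 to 0.268 ± 0.207 CPM (log2 fold change -2.52 ± 0.41, adjusted p = 0.0031) and EXPA16 from 2.77 ± 1.06 to 0.718 ± 0.155 CPM (log2 fold change -1.904 ± 0.34, adjusted p = 0.0043). EXPA15 lost its call without the first wild-type or the second gcn5 library, with library totals and with DESeq2. EXLB1 had 125 wild-type and 2 gcn5 counts, a ratio of 44.5 (95% exact interval 12.1 to 372).

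The growth hormones gibberellin and brassinosteroid had 9 of 15 genes lower and 2 higher (median log2 fold change -0.49). The falls covered brassinosteroid synthesis, with DWF4 (log2 fold change -1.14 ± 0.16, adjusted p = 0.0018), CPD (log2 fold change -0.90 ± 0.13, adjusted p = 0.0018) and BR6OX2 (log2 fold change -1.29 ± 0.20, adjusted p = 0.0027), and the receptor gene BRI1 (log2 fold change -0.61 ± 0.12, adjusted p = 0.0059). Neither of the 2 higher genes was called without either wild-type library, without the first gcn5 library, with library totals or with DESeq2. The gene with the largest fall of all at the 10 CPM minimum, GA2OX6, encodes a gibberellin-inactivating oxidase outside this list. It stood at 6.43 and 25.3 CPM in wild type and 0.649 and 0.828 CPM in gcn5 (log2 fold change -4.39 ± 0.75, adjusted p = 0.0037), so that the wild-type libraries themselves differed several-fold.

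Secondary wall and membrane families, again grouped by symbol after values were seen, were lower as well. Of 13 fasciclin-like arabinogalactan protein genes (FLA), 9 fell and none rose, with FLA2 going from 26.9 ± 5.96 to 7.41 ± 2.38 CPM (log2 fold change -1.87 ± 0.22, adjusted p = 9.4e-04). Of 10 irregular xylem genes (IRX), 6 fell and none rose, among them the cellulose synthase genes IRX1 (log2 fold change -1.001 ± 0.12, adjusted p = 0.0011) and IRX3 (log2 fold change -0.93 ± 0.14, adjusted p = 0.0026). Of 12 plasma membrane aquaporin genes (PIP, without the PIP5K kinase genes that share the stem), 8 fell and none rose. PIP1A fell from 145 ± 5.98 to 61.2 ± 4.83 CPM (log2 fold change -1.25 ± 0.09, adjusted p = 1.6e-04) and PIP2A from 522 ± 4.01 to 270.4 ± 7.49 CPM (log2 fold change -0.95 ± 0.10, adjusted p = 6.2e-04). These were chosen from 122 such families.

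**Figure D3:**
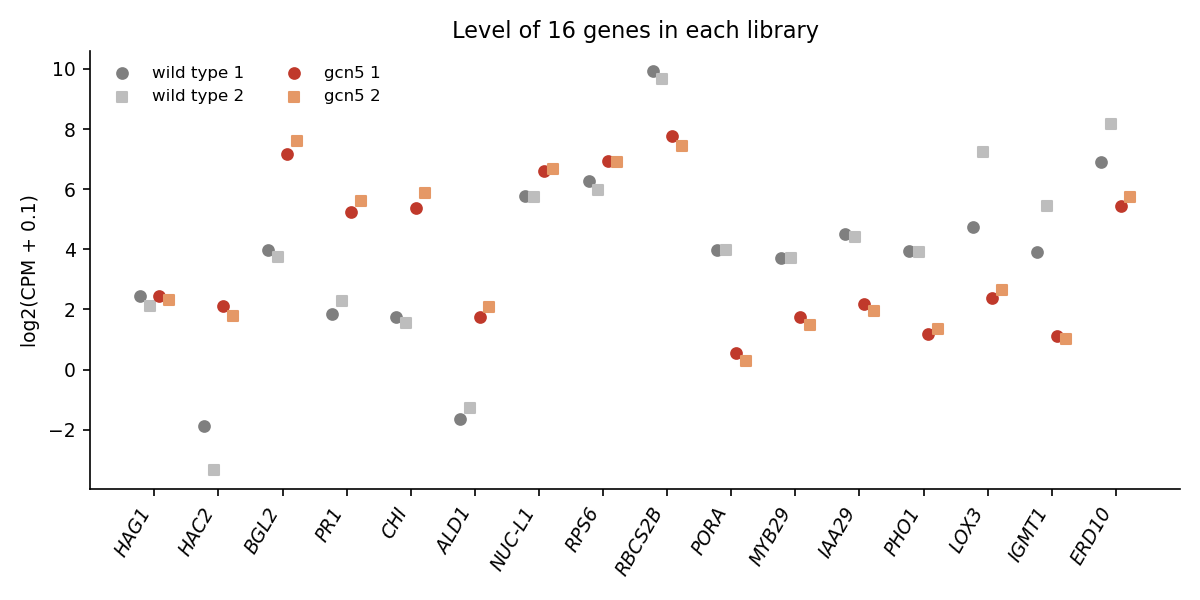
Level as log2(CPM + 0.1) (y axis) of 16 genes (x axis) in the 4 libraries, with grey for wild type, red and orange for gcn5, circles for replicate 1 and squares for replicate 2. HAG1 overlaps between the groups, the other 15 genes separate them, and the 2 wild-type points stand far apart for LOX3, IGMT1 and ERD10.

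Jasmonate genes were lower, with a wide spread between the wild-type libraries. Jasmonate is the hormone of wounding and insect defence, made from linolenic acid by lipoxygenases (LOX), AOS, AOC and OPR3, and its targets include the JAZ repressor genes. Of 25 tested genes 18 fell and 1 rose, with the lowest median of the 30 lists other than cell type markers, -0.97. LOX3 stood at 26.4 and 149.5 CPM in wild type and 5.11 and 6.17 CPM in gcn5 (log2 fold change -3.95 ± 0.70, adjusted p = 0.0045). OPR3 stood at 45.6 and 153 CPM in wild type and 20.6 and 25.1 CPM in gcn5 (log2 fold change -2.12 ± 0.46, adjusted p = 0.0098). AOC1 stood at 7.93 and 39.4 CPM in wild type and 3.45 and 5.12 CPM in gcn5 (log2 fold change -2.44 ± 0.65, adjusted p = 0.022).

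In all these genes the second wild-type library was several times the first, and the gcn5 libraries were close to each other and below both. The second wild-type library exceeded the first more than 2-fold for 10 of the 25 genes, against 586 of all 19575 tested. Without that library 14 jasmonate genes were lower, and without the first or the second gcn5 library 9 and 7. LOX6, the gene of smallest p in the list, did not show this difference, with 43.7 and 40.2 CPM in wild type and 23.9 and 22.02 CPM in gcn5 (log2 fold change -0.87 ± 0.11, adjusted p = 0.0013). JAZ7 stood at 2.52 and 4.87 CPM in wild type and 0.528 and 0.263 CPM in gcn5 (log2 fold change -3.197 ± 0.47, adjusted p = 0.0021) and JAZ5 at 4.91 and 11.01 CPM in wild type and 1.87 and 1.54 CPM in gcn5 (log2 fold change -2.19 ± 0.38, adjusted p = 0.0039). VSP2, a vegetative storage protein and wound marker, stood at 46.8 and 33.5 CPM in wild type and 4.099 and 13.9 CPM in gcn5 (log2 fold change -2.16 ± 0.46, adjusted p = 0.0087). The member that rose was the defensin gene PDF1.2, with 4.09 and 1.51 CPM in wild type and 14.8 and 18.7 CPM in gcn5 (log2 fold change 2.503 ± 0.42, adjusted p = 0.0037). In the atxr5/6 background only 3 of the 25 were called lower, 2 were called higher, and the median log2 fold change was -0.19.

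Among the 10 largest falls, 3 further genes were over 2-fold apart between the wild-type libraries. IGMT1, an indole glucosinolate methyltransferase gene, stood at 14.998 and 42.9 CPM in wild type and 2.07 and 1.92 CPM in gcn5 (log2 fold change -3.84 ± 0.50, adjusted p = 0.0013). PP2-A5, a phloem protein gene, stood at 6.91 and 14.3 CPM in wild type and 0.7305 and 0.6398 CPM in gcn5 (log2 fold change -3.93 ± 0.61, adjusted p = 0.0026). AT1G02360 stood at 6.39 and 16.03 CPM in wild type and 0.609 and 0.903 CPM in gcn5 (log2 fold change -3.85 ± 0.60, adjusted p = 0.0027).

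In the other large falls the wild-type libraries were close. SCPL11, a serine carboxypeptidase-like gene, stood at 16.7 and 13.9 CPM in wild type and 0.7305 and 0.941 CPM in gcn5 (log2 fold change -4.19 ± 0.19, adjusted p = 2.0e-05). ARGAH2, one of the arginase genes, stood at 28.9 and 38.4 CPM in wild type and 1.096 and 2.67 CPM in gcn5 (log2 fold change -4.14 ± 0.33, adjusted p = 2.0e-04). AT1G66100 stood at 65.8 and 60.3 CPM in wild type and 2.39 and 4.25 CPM in gcn5 (log2 fold change -4.24 ± 0.32, adjusted p = 1.6e-04). AT1G68600 (log2 fold change -3.78 ± 0.17, adjusted p = 2.0e-05) and AT3G46370 (log2 fold change -3.77 ± 0.18, adjusted p = 2.4e-05) were lower by similar factors, with both gcn5 libraries under 1.3 CPM.

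Cold-response genes carried the same spread. Of 15 tested, 5 fell and 2 rose (background 18.1% higher and 19.4% lower), and 7 differed more than 2-fold between the wild-type libraries. ERD10 stood at 121 and 287 CPM in wild type and 42.9 and 52.99 CPM in gcn5 (log2 fold change -2.09 ± 0.36, adjusted p = 0.0039), and COR47 at 116 and 230.1 CPM in wild type and 49.2 and 53.7 CPM in gcn5 (log2 fold change -1.75 ± 0.33, adjusted p = 0.0057). KIN1 fell (log2 fold change -1.88 ± 0.47, adjusted p = 0.016), and RHL41, the zinc-finger gene ZAT12, rose (log2 fold change 0.90 ± 0.20, adjusted p = 0.011). No cold gene was higher without the second gcn5 library, and 1 was without any other single library. Without the second wild-type library 3 cold genes were lower, without the first 8, without the first gcn5 library 2, and in the atxr5/6 background also 3. Of 9 indolic glucosinolate genes 3 fell (background 19.4% lower). CYP81F2, which modifies indole glucosinolates, stood at 19.1 and 53.4 CPM in wild type and 4.099 and 4.44 CPM in gcn5 (log2 fold change -3.07 ± 0.56, adjusted p = 0.005), again with the second wild-type library highest. CYP79B3 (log2 fold change -0.91 ± 0.25, adjusted p = 0.022) and SUR1 (log2 fold change -0.44 ± 0.14, adjusted p = 0.04) were the other two. Without the first and the second wild-type library 5 and 2 were lower, and without the first and the second gcn5 library 1 and 1.

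Aliphatic glucosinolate genes were mostly lower, and libraries of a group were close for those named here. These sulfur compounds are made from methionine through side-chain elongation, with MYB28 and MYB29 as regulators. Of 14 genes, 8 fell and 2 rose (median -0.57). MYB29 stood at 12.9 and 13.1 CPM in wild type and 3.29 and 2.67 CPM in gcn5 (log2 fold change -2.13 ± 0.19, adjusted p = 3.3e-04). MAM1, the side-chain elongating synthase, stood at 200.1 and 218 CPM in wild type and 84.9 and 89.9 CPM in gcn5 (log2 fold change -1.26 ± 0.09, adjusted p = 1.1e-04). BCAT4 fell from 122 ± 8.86 to 63.95 ± 5.85 CPM (log2 fold change -0.93 ± 0.11, adjusted p = 9.1e-04) and CYP83A1 from 176 ± 0.404 to 93.1 ± 4.71 CPM (log2 fold change -0.92 ± 0.11, adjusted p = 0.0011). IMS2, also called MAM3, was one of the genes that rose (log2 fold change 1.48 ± 0.20, adjusted p = 0.0015). Without the first gcn5 library 5 were lower, and without the second 1 was higher. In the atxr5/6 background 11 of the 14 were lower, and MYB29 changed by -3.49 on the log2 scale (adjusted p = 3.7e-05).

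Of 18 flavonoid genes 5 fell and none rose (background 18.1% higher and 19.4% lower). PAL2, an entry enzyme of phenylpropanoid synthesis, went from 65.4 ± 6.28 to 36.5 ± 2.17 CPM (log2 fold change -0.84 ± 0.12, adjusted p = 0.0017). The anthocyanin genes DFR (log2 fold change -1.49 ± 0.27, adjusted p = 0.005), LDOX (log2 fold change -1.18 ± 0.22, adjusted p = 0.0057) and GSTF12 (log2 fold change -1.11 ± 0.26, adjusted p = 0.013) fell too, and 3 of the 5 were called without the second gcn5 library.

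Of 22 cuticular wax genes, 6 fell and none rose (background 19.4% lower). CER3, an enzyme of alkane formation reported as a direct GCN5 target, stood at 49.3 and 37.2 CPM in wild type and 27.5 and 28.5 CPM in gcn5 (log2 fold change -0.63 ± 0.13, adjusted p = 0.0077). KCS1 stood at 75.4 and 84.4 CPM in wild type and 28.2 and 21.9 CPM in gcn5 (log2 fold change -1.67 ± 0.15, adjusted p = 3.0e-04), while KCS6 fell from 117 ± 8.26 to 64.1 ± 2.196 CPM (log2 fold change -0.86 ± 0.11, adjusted p = 0.0014) and CER2 from 10.5 ± 1.04 to 5.02 ± 0.709 CPM (log2 fold change -1.07 ± 0.17, adjusted p = 0.0029). The KCS genes encode elongases of very-long-chain fatty acids.

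Genes named as GCN5 targets in earlier literature were few and mixed. Of 9, 7 had enough counts, 3 fell and 1 rose. CER3 and SHY2 are given above. POM1, a chitinase-like protein gene, fell from 329 ± 19.9 to 203 ± 6.38 CPM (log2 fold change -0.69 ± 0.10, adjusted p = 0.0018). FAD3, the desaturase that makes linolenic from linoleic acid, was the gene called higher, at 26.3 and 25.6 CPM in wild type and 31.8 and 32.1 CPM in gcn5 (log2 fold change 0.30 ± 0.08, adjusted p = 0.022), and lost its call with library totals only, with DESeq2, with only the 4 libraries in the fit, and without each library except the first wild-type one. The heat factor gene HSFA3 stood at 1.85 and 1.62 CPM in wild type and 1.096 and 1.35 CPM in gcn5 (log2 fold change -0.51 ± 0.24, adjusted p = 0.13) and the helicase gene UVH6 at 4.67 and 4.71 CPM in wild type and 4.302 and 5.19 CPM in gcn5 (log2 fold change 0.02 ± 0.14, adjusted p = 0.93), neither past the test.

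Genes of the cell cycle and of DNA replication included 10 of 24 higher and none lower (median 0.40). TSO2, a ribonucleotide reductase subunit, stood at 18.1 and 14.3 CPM in wild type and 31.4 and 28.5 CPM in gcn5 (log2 fold change 0.88 ± 0.17, adjusted p = 0.0057). CDC6, which licenses replication origins, stood at 2.85 and 1.93 CPM in wild type and 6.94 and 4.82 CPM in gcn5 (log2 fold change 1.26 ± 0.23, adjusted p = 0.0045). The cyclin-dependent kinase inhibitor gene ICK1, also known as KRP1, rose from 1.08 ± 0.0465 to 2.24 ± 0.0739 CPM (log2 fold change 1.05 ± 0.18, adjusted p = 0.0041) and MCM2 from 7.9996 ± 1.54 to 12.2 ± 0.317 CPM (log2 fold change 0.60 ± 0.13, adjusted p = 0.011). The count was 5 without the second wild-type library, 14 without the first, 5 and 3 without the first and second gcn5 library, and 0 in the atxr5/6 background, where 3 were lower.

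Of 18 DNA methylation and silencing genes 7 rose and 1 fell. NRPD1B, the largest subunit of RNA polymerase V, stood at 8.65 and 7.61 CPM in wild type and 16.9 and 19.9 CPM in gcn5 (log2 fold change 1.17 ± 0.16, adjusted p = 0.0014). The methyltransferase genes CMT2 (log2 fold change 0.70 ± 0.12, adjusted p = 0.0039) and MET1 (log2 fold change 0.80 ± 0.15, adjusted p = 0.0049) rose, and so did DCL3, a dicer of heterochromatic small RNAs (log2 fold change 0.66 ± 0.13, adjusted p = 0.0072). The count was 4 and 3 without the first and the second gcn5 library and 3 with library totals. Of 21 histone genes 6 rose and 1 fell (background 18.1% higher and 19.4% lower). HTA4, an H2A gene, stood at 7.39 and 8.92 CPM in wild type and 18.8 and 18.6 CPM in gcn5 (log2 fold change 1.21 ± 0.12, adjusted p = 4.5e-04). HTA12, another H2A gene, fell from 4.31 ± 0.8401 to 1.81 ± 0.0415 CPM (log2 fold change -1.23 ± 0.18, adjusted p = 0.0022). The H4 gene HIS4 (log2 fold change 0.68 ± 0.12, adjusted p = 0.005) and H2AXA (log2 fold change 0.47 ± 0.11, adjusted p = 0.012) rose. Without the second wild-type library 2 histone genes were higher, without the first and second gcn5 library 2 and 3, and with library totals 1.

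Leaf development genes split, with 6 of 19 higher and 4 lower (background 18.1% higher and 19.4% lower). The growth regulators AN3 and GRF5 both rose. AN3 stood at 1.17 and 1.66 CPM in wild type and 4.099 and 4.97 CPM in gcn5 (log2 fold change 1.71 ± 0.26, adjusted p = 0.0025), and GRF5 at 1.26 and 1.62 CPM in wild type and 3.65 and 4.22 CPM in gcn5 (log2 fold change 1.47 ± 0.21, adjusted p = 0.0018). AS1, a MYB gene of leaf polarity, rose from 3.89 ± 0.673 to 10.2 ± 1.17 CPM (log2 fold change 1.42 ± 0.15, adjusted p = 6.6e-04), whereas its partner AS2 fell (log2 fold change -1.08 ± 0.25, adjusted p = 0.011). BOP2, a co-regulator of leaf base identity, fell from 3.09 ± 0.277 to 0.878 ± 0.0361 CPM (log2 fold change -1.801 ± 0.19, adjusted p = 6.0e-04). Without the second gcn5 library 2 were lower. Of 7 trichome genes 2 fell (background 19.4% lower). These were GL2 (log2 fold change -0.57 ± 0.11, adjusted p = 0.0056) and CPC (log2 fold change -1.18 ± 0.40, adjusted p = 0.047). Only GL2 was called when any of the 4 libraries was left out or with DESeq2.

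Flowering genes were as often higher as lower, 4 and 4 of 18, near the background of 18.1% higher and 19.4% lower. AGL20, the floral integrator SOC1, fell from 56.3 ± 1.58 to 37.9 ± 1.44 CPM (log2 fold change -0.57 ± 0.08, adjusted p = 0.0019) and SPL4 from 3.71 ± 0.165 to 1.74 ± 0.176 CPM (log2 fold change -1.09 ± 0.18, adjusted p = 0.0034). The repressor gene AGL31, or MAF2, rose (log2 fold change 0.52 ± 0.09, adjusted p = 0.0045), as did FY, of the autonomous pathway (log2 fold change 0.59 ± 0.12, adjusted p = 0.007). With library totals none was higher, without the second wild-type or the second gcn5 library 2 were, and without the first wild-type library 2 were lower.

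Of 17 clock genes 5 rose and 3 fell (background 18.1% higher and 19.4% lower). ELF3, of the evening complex, stood at 12.5 and 12.5 CPM in wild type and 19.9 and 25.3 CPM in gcn5 (log2 fold change 0.85 ± 0.12, adjusted p = 0.0018). The morning genes LHY (log2 fold change -0.76 ± 0.20, adjusted p = 0.02), CCA1 (log2 fold change -0.48 ± 0.12, adjusted p = 0.019) and LCL1 (log2 fold change -0.49 ± 0.10, adjusted p = 0.0063) fell. FKF1 stood at 2.33 and 3.59 CPM in wild type and 3.86 and 18.4 CPM in gcn5 (log2 fold change 1.96 ± 0.60, adjusted p = 0.035) and PRR5 at 17.5 and 20.8 CPM in wild type and 23.01 and 60.3 CPM in gcn5 (log2 fold change 1.12 ± 0.36, adjusted p = 0.04), both far higher in the second gcn5 library than in the other 3. Without that library 1 clock gene was higher and none lower, and without the first or the second wild-type library 1 and 2 were higher.

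Abscisic acid, iron and phosphate genes held single large changes without a common direction (background 18.1% higher and 19.4% lower). Of 15 abscisic acid genes 4 fell and 2 rose. NCED3, the rate-limiting enzyme of abscisic acid synthesis under drought, stood at 13.8 and 22.5 CPM in wild type and 1.66 and 2.15 CPM in gcn5 (log2 fold change -3.23 ± 0.27, adjusted p = 2.6e-04). PYL4, a receptor gene, stood at 26.997 and 33.99 CPM in wild type and 14.3 and 9.07 CPM in gcn5 (log2 fold change -1.38 ± 0.26, adjusted p = 0.0054), RD22 fell (log2 fold change -0.88 ± 0.11, adjusted p = 0.0011) and ABA2 rose (log2 fold change 0.89 ± 0.16, adjusted p = 0.005). Without the first wild-type library 7 were lower and 1 higher, and without the second gcn5 library 1 was higher. Of 17 iron genes 2 rose and 2 fell. The nicotianamine synthase gene NAS1 stood at 6.41 and 10.9 CPM in wild type and 1.38 and 1.92 CPM in gcn5 (log2 fold change -2.36 ± 0.29, adjusted p = 0.001), and bHLH38 at 0.543 and 0.8497 CPM in wild type and 3.08 and 1.02 CPM in gcn5 (log2 fold change 1.597 ± 0.51, adjusted p = 0.039), with the first gcn5 library highest. The ferritin gene FER3 rose (log2 fold change 0.76 ± 0.21, adjusted p = 0.023) and the ferric reductase gene FRO2 fell (log2 fold change -0.98 ± 0.29, adjusted p = 0.03). Without the first gcn5 library no iron gene was higher, without either wild-type library 1 was, and without the second gcn5 library 1 was lower. FER3 and FRO2 lost their calls without the second wild-type library and without either gcn5 library. Of 12 phosphate genes 4 rose and 3 fell. PHO1, which loads phosphate into the xylem, stood at 15.5 and 15.02 CPM in wild type and 2.15 and 2.45 CPM in gcn5 (log2 fold change -2.73 ± 0.16, adjusted p = 7.4e-05). The phosphatase gene PAP17 stood at 5.13 and 7.11 CPM in wild type and 13.6 and 18.03 CPM in gcn5 (log2 fold change 1.39 ± 0.23, adjusted p = 0.0036). SQD2 fell (log2 fold change -0.65 ± 0.14, adjusted p = 0.0087) and SQD1 rose (log2 fold change 0.50 ± 0.13, adjusted p = 0.022), both of sulfolipid synthesis. Without the second gcn5 library 1 phosphate gene was higher, without either wild-type library 2, and without the first gcn5 library 1 was lower.

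Most spliceosomal snRNA genes were lower. Of 21 tested, 13 fell (background 19.4%) and 1 rose, with a median log2 fold change of -1.01. Of 98 snoRNA genes 24 (24.5%, background 18.1%) rose and 3 fell, and the other 71 were not called (median 0.63). The U2 gene U2.5 stood at 52.8 and 58.7 CPM in wild type and 30.5 and 21.8 CPM in gcn5 (log2 fold change -1.09 ± 0.18, adjusted p = 0.0035). The U6 gene U6-1 stood at 8.999 and 7.18 CPM in wild type and 4.87 and 2.18 CPM in gcn5 (log2 fold change -1.22 ± 0.31, adjusted p = 0.017). The second gcn5 library was the lowest of the 4 for both. In the atxr5/6 background the log2 fold change was -0.50 for U2.5 and -0.40 for U6-1. Each of the 13 that fell changed less there, and U5.6 had the opposite sign (log2 fold change 0.50). These genes exist as near-identical copies, so the split of reads among them is uncertain. The U1 gene U1.4 was the one that rose, at 43.2 and 39.97 CPM in wild type and 159.8 and 49.5 CPM in gcn5 (log2 fold change 1.33 ± 0.44, adjusted p = 0.044), almost wholly through the first gcn5 library. Of 134 tested mitochondrial genes 51 (38.1%) rose and 3 (2.24%) fell. Of 132 plastid genes 14 (10.6%) rose and 39 (29.5%) fell (background 18.1% higher and 19.4% lower). The organelle and rRNA shares of the libraries also differed between the groups, and their part in these counts was not tested.

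Transposable elements (TEs) were tested on the scale of the gene table. TE counts made up 0.2799% and 0.285% of gene-table counts in wild type and 0.292% and 0.402% in gcn5. Taken over nuclear counts without organelle and rDNA-locus features, the shares were 0.642% and 0.692% of other nuclear counts in wild type and 0.945% and 1.02% in gcn5, with no overlap (exact two-sided permutation p = 0.333, the smallest possible). Of 1540 TEs tested, 219 (14.2%) rose and 85 (5.52%) fell, 19.7% in all. Of these, 188 (12.2%) and 58 (3.77%) changed by an absolute log2 fold change of at least 1. The TEs tested had a median log2 fold change of 0.22. By the number in their identifier, which names the chromosome, chromosome 3 held 94 of the 219, or 25.97% of its 362 tested TEs, and the other 4 had between 8.11% and 13.1% higher. Scaled by the TE table itself, 175 were higher and 160 lower, so the balance of directions depended on the scale. Without the first wild-type library 104 were higher. Of the higher TEs, 83 had at most 3 counts in each wild-type library, and of the lower TEs, 18 had as few in each gcn5 library. Such TEs passed the count filter only through other groups, so their direction was nearly fixed in advance. They are included in the counts by direction, the median and the chromosome counts.

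A few TEs held a large share of TE counts in gcn5. AT2TE00095 had 105 and 156 counts in wild type and 8349 and 10875 counts in gcn5 (log2 fold change 6.54 ± 0.47, adjusted p = 4.2e-06). AT3TE58570 had 88 and 104 counts in wild type and 4975 and 7773 counts in gcn5 (log2 fold change 6.43 ± 0.42, adjusted p = 3.3e-06). AT2TE00085 had 3 and 1 counts in wild type and 192 and 298 counts in gcn5, a ratio of 172 (95% exact interval 66.7 to 634).

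These 3 together took 0.159% and 0.344% of TE counts in wild type and 15.4% and 19.0% in gcn5. Without them the TE share of other nuclear counts was 0.641% and 0.6899% of other nuclear counts in wild type and 0.799% and 0.826% in gcn5. Like the rRNA share they were high in both gcn5 libraries. They were higher in the second gcn5 library, whose rRNA share was the lower. In wild type and in atxr5/6 the second library had the higher rRNA share. There AT2TE00095 held 2.28 and 6.03 CPM in wild type and 10.04 and 22.2 CPM in atxr5/6. AT3TE58570 held 1.91 and 4.02 CPM in wild type and 5.98 and 12.7 CPM in atxr5/6. AT2TE00085 had too few counts in wild type to compare. The part of the rRNA share in the rise of the 3 TEs was not tested.

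Of the other TEs that rose, 5 were named by their p-values. AT3TE60870 was already well counted in wild type, with 902 and 500 counts in wild type and 1616 and 1600 counts in gcn5 (log2 fold change 1.69 ± 0.14, adjusted p = 1.4e-05). AT2TE25440 had 18 and 17 counts in wild type and 182 and 259 counts in gcn5 (log2 fold change 4.103 ± 0.34, adjusted p = 1.4e-05). AT1TE93275 had 6 and 2 counts in wild type and 85 and 71 counts in gcn5 (log2 fold change 4.74 ± 0.34, adjusted p = 4.2e-06). AT3TE58020 (log2 fold change 4.99 ± 0.46, adjusted p = 3.4e-05) and AT3TE57780 (log2 fold change 4.91 ± 0.46, adjusted p = 3.5e-05) rose from 8 counts or fewer in each wild-type library. This was common: 83 of the 219 TEs had at most 3 counts in each wild-type library, and 77 reached 100 counts over both gcn5 libraries.

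Of the TEs that fell, AT5TE49725 had 416 and 222 counts in wild type and 31 and 23 counts in gcn5 (log2 fold change -3.06 ± 0.27, adjusted p = 2.4e-05). AT5TE31350 had 691 and 369 counts in wild type and 104 and 73 counts in gcn5 (log2 fold change -2.08 ± 0.20, adjusted p = 3.5e-05). AT1TE39775 had 55 and 37 counts in wild type and 1 and 1 counts in gcn5, a ratio of 32.8 (95% exact interval 8.82 to 275). AT2TE24520 (log2 fold change -2.102 ± 0.21, adjusted p = 4.6e-05), AT4TE09225 (log2 fold change -2.86 ± 0.29, adjusted p = 4.8e-05) and AT5TE27865 (log2 fold change -1.36 ± 0.16, adjusted p = 1.5e-04) fell as well. In each, both gcn5 libraries lay below both wild-type libraries. A TE inside or beside a gene can take up that gene's reads, which these tables cannot separate.

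**Figure D4:**
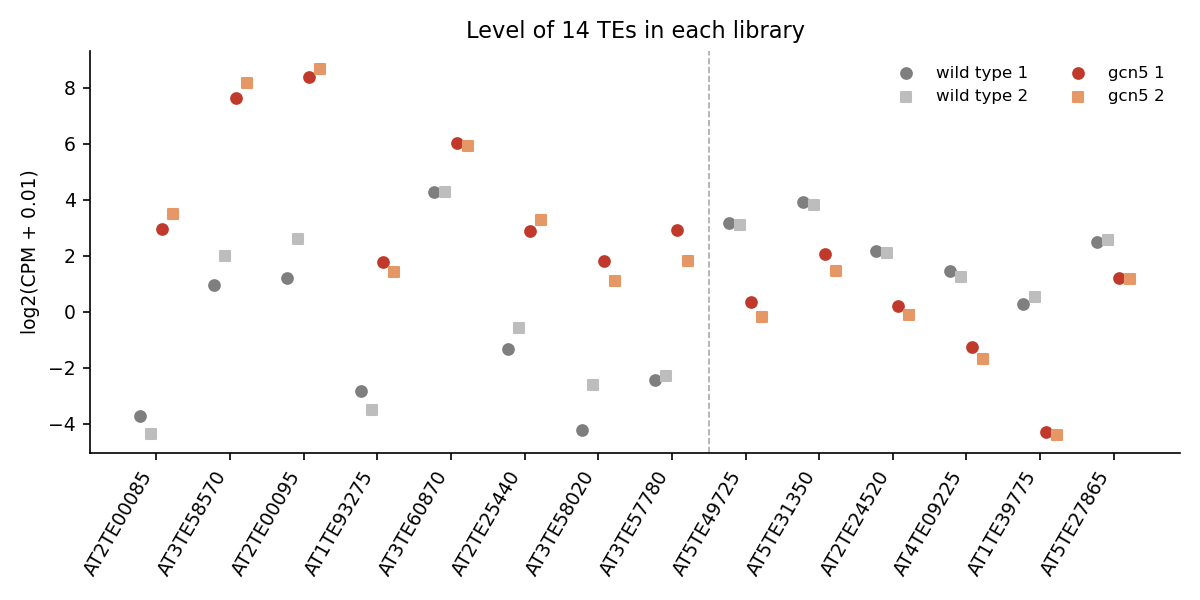
Level as log2(CPM + 0.01) (y axis) of 14 TEs (x axis) in the 4 libraries, with the 8 higher TEs left of the dashed line and the 6 lower TEs right of it. Grey is wild type and red or orange is gcn5, and the groups separate in all 14.

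The same contrast was available in other libraries, atxr5/6 gcn5 against atxr5/6, which share no library with gcn5 and wild type. There 18.4% of genes were higher and 18.3% lower. Of the 3537 genes higher in gcn5, 3293 (93.1%) had the same sign and 2062 (58.3%) were called higher, while 44 were called lower. Of the 3806 lower genes, 3404 (89.4%) had the same sign, 2292 (60.2%) were called lower, and 38 were called higher. The median log2 fold change of the higher genes was 0.63 in the first contrast, which chose them, and 0.46 in the second. For the lower genes it was -0.94 and -0.69. Across genes, the fold changes of separate fits to the 4 libraries of each contrast had a Pearson correlation of 0.75 over 18712 genes, which are not independent replicates. The atxr5/6 gcn5 libraries had an rRNA share of 19.5% and 15.02%, against 0.898% and 2.40% in atxr5/6, so the rRNA share moved with gcn5 there too.

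Among gene lists, light harvesting and the Rubisco small subunit was lower for 23 of 23 genes there, salicylic acid higher for 20 of 24, cytosolic ribosomal proteins higher for 22 of 34 and ribosome biogenesis for 14 of 19. For jasmonate, XTH and GH3 genes, 3 of 25, 6 of 24 and none of 7 were lower there, and 2, 5 and 3 were higher. The difference between backgrounds was not tested for a list as a whole. For single features, the difference was called by the interaction term for 92 of 19575 genes (0.47%) and for 76 of 1540 TEs (4.94%), of which 68 (4.42% of those tested) had the lower change in the atxr5/6 background. The interaction term compares changes and not levels, and some of these TEs, such as AT1TE93275, were already higher in atxr5/6 than in wild type. In the atxr5/6 background 39.6% of TEs were called, 13.2% higher and 26.4% lower. Of the 219 TEs higher in gcn5, 133 were called higher in the atxr5/6 background, and 31 had a called interaction.

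**Figure D5:**
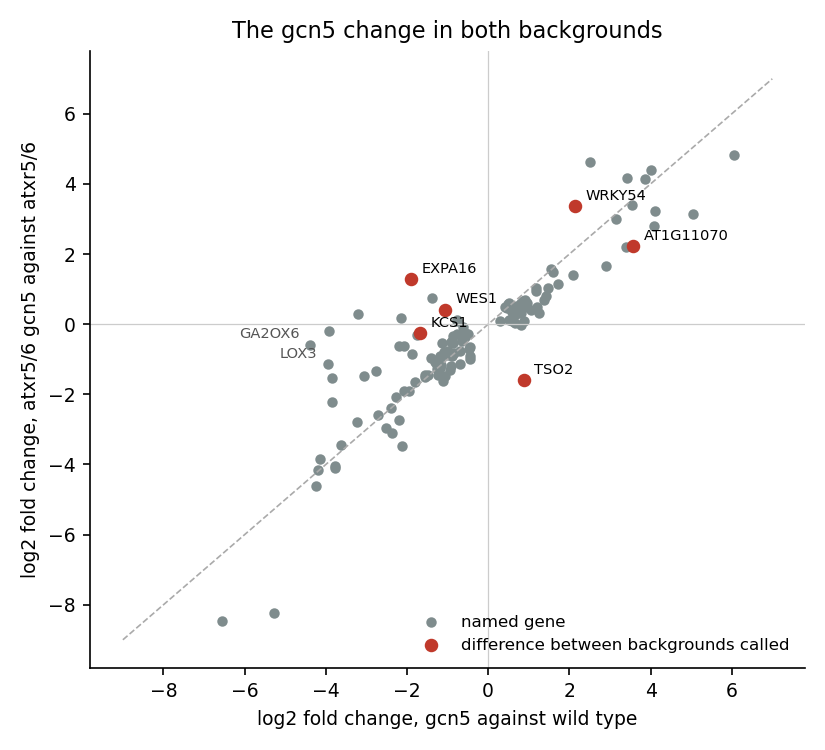
Log2 fold change between gcn5 and wild type (x axis) and in atxr5/6 gcn5 against atxr5/6 (y axis) for the 134 named genes called in the first contrast, which chose them. The dashed line marks equal change; the 6 genes whose change differed between backgrounds at an adjusted p under 0.05 are red and labelled, and LOX3 and GA2OX6 lie far from the line without passing that test.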

How the data were processed

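Gene and transposable element (TE) counts per library were deposited by the authors as whole-number counts. Per the submitters' processing notes, STAR 2.7.2a, featureCounts 1.6.4 and the TAIR10 build were used, and the strand setting of counting is not given in the sources used here. Antisense, overlapping and near-identical genes are therefore uncertain. Names came from a RefSeq gene table. Genes with enough counts (filterByExpr, minimum count 10) were tested with edgeR 4.0.16 in R 4.3.3, by the quasi-likelihood test with Benjamini-Hochberg adjustment, on all 8 RNA-seq libraries with TMM factors of the gene table, which also scaled the TEs. DESeq2 1.42.0 was an alternative. The fit was also run on simulated data with balanced changes, known library sizes and no shift in rRNA share. That run therefore does not test the scaling used here. Depth ranged from 24860332 to 43969417 gene counts, and intervals cover counting error only. The rRNA share counts 18 features at nuclear rDNA loci. Plastid and mitochondrial rRNA genes could not be told by name, so the intended wider definition was not applied.

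The libraries and lists were chosen with earlier results of these data known. Named genes were HAG1 and its SAGA partners, the 10 largest rises and falls at a mean of at least 10 CPM, up to 4 called members per list by p, reported targets, and 8 higher and 6 lower TEs. RBCS1B, RBCS3B, PORB, FIB1, FIB2, NOP56, YAO, EDS16, SARD1, PR5, WRKY70, WRKY18, WRKY46, AOC1, OPR3, VSP2, PRR5, FKF1, IMS2, AS2, PYK10, SUC2, SAG13, IAA9 and GH3.9 were named after their values were seen, as were the genes of symbol families and small RNAs.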

Additional observations from a re-analysis of the deposited data

Results flagged for a closer look

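The change in gcn5 differed between the wild-type and the atxr5/6 background for 6 named genes and 7 named TEs, by edgeR's interaction term with Benjamini-Hochberg adjustment over all features. The differences below are on the log2 scale, as the change in the atxr5/6 background minus the change in the wild-type background. The salicylic acid regulator WRKY54 rose more in the atxr5/6 background (difference 1.23, adjusted p = 0.049). AT1G11070 rose less there (difference -1.34, adjusted p = 0.037). TSO2, of nucleotide synthesis, was higher in gcn5 and had a log2 fold change of -1.59 in the atxr5/6 background (difference -2.47, adjusted p = 0.012). The auxin-conjugating enzyme gene WES1 (difference 1.48, adjusted p = 0.013), the elongase gene KCS1 (difference 1.42, adjusted p = 0.042) and the expansin gene EXPA16 (difference 3.19, adjusted p = 0.045) fell in gcn5 and had log2 fold changes of 0.42, -0.26 and 1.29 in the other background.

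Among TEs, AT2TE00085 (difference -4.22, adjusted p = 0.011), AT3TE58570 (-3.16, adjusted p = 0.0075) and AT2TE00095 (-3.81, adjusted p = 0.0035) rose less in the atxr5/6 background. AT1TE93275 (-4.19, adjusted p = 3.3e-04), AT3TE58020 (-4.13, adjusted p = 0.0035) and AT3TE57780 (-3.42, adjusted p = 0.011) did as well. These TEs were already higher in atxr5/6 than in wild type. AT1TE93275 held 2.37 and 2.32 CPM in atxr5/6 and 0.130 and 0.0772 CPM in wild type. With gcn5 its levels were alike, at 3.82 and 3.05 CPM in atxr5/6 gcn5 and 3.45 and 2.67 CPM in gcn5. AT5TE31350 fell less in the atxr5/6 background (1.102, adjusted p = 0.04).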

How the results depend on the processing

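Genes higher in gcn5 numbered 3537, but 2106 with DESeq2 and 1345 with library totals only, where 4838 were called in all. With an absolute log2 fold change of at least 1 added, 2639 genes were called, 884 higher and 1755 lower. Leaving out 1 of the 4 libraries gave 3791 to 6087 genes, 1734 to 2702 higher and 2057 to 3404 lower. For TEs it gave 176 to 240 in all and 104 to 176 higher. TEs lower numbered 53 with DESeq2 and 160 with the TMM of the TE table, and a mean of at least 20 counts left 188 TEs, 126 of them higher. With the rRNA share as a covariate 0 genes and 0 TEs were called in either direction, against 1964 genes and 98 TEs at an unadjusted p under 0.05. There, 6 named genes had an estimate of the other sign, without a call: CER3 0.0022, SHY2 0.028, HDA05 -0.11, GSTF12 0.068, bHLH38 -1.36 and CPC 0.70 (log2). The other 142 named features lost their call. The rRNA share was 0.311% to 2.40% in the libraries without gcn5 and 13.4% to 21.6% in those with it. The covariate thus nearly repeats the gcn5 label, so lost calls and changed signs in that fit do not show what the rRNA share did. The cause of these shifts was not tested. Of 148 named features, 144 kept their call with DESeq2 and 132 with library totals only. rRNA genes alone made 6.43% of gcn5 and 0.177% of wild-type counts. The TE total was 0.982% in gcn5 and 0.667% in wild type over gene counts without organelle and rRNA genes, and 0.812% and 0.665% without 3 TEs, an alternative chosen after seeing the data, as were the counts per list. With the replicate block 3176 genes were higher and 3602 lower, 220 and 89 TEs, and CPC lost its call. Same-numbered wild-type and gcn5 libraries deviated with a correlation of 0.062, so the number gave no sign of pairing, which so few libraries cannot exclude. Of the 219 TEs higher, 83 had at most 3 counts in each wild-type library, so their fold changes are imprecise and their direction was nearly fixed by the count filter.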
